A study of Mus musculus with 2 samples.

Results

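The 78 genes described here encode proteins of the mitochondrial ribosome. They were chosen by symbol alone, as every gene named Mrpl or Mrps followed by digits, with pseudogenes left out, among 25668 gene symbols. By symbol, 49 belong to the large subunit (Mrpl) and 29 to the small subunit (Mrps). The material was mouse fallopian tube epithelium grown as organoids, three-dimensional cultures of the cell layer that lines the oviduct. The Trp53 KO library came from organoids that had lost Trp53, which encodes the tumour suppressor p53, by knockout. The WT library came from normal organoids, WT at Trp53, of a mouse with the Gt(ROSA)26Sortm1(CAG-cas9*,-EGFP)Fezh allele on a B6J.129(B6N) background, which carries a Cas9 and EGFP transgene. Both libraries are labelled as grown in conditioned medium. The labels do not say how many mice or organoid clones stand behind each library, nor whether the Trp53 KO organoids carry that allele. With 1 library in each group there is no replicate check and no test, and every difference compares these 2 libraries.

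Mitochondria keep their own ribosome, which translates the few respiratory chain subunits encoded by mitochondrial DNA. Its ribosomal RNAs come from that DNA, but all its proteins are made in the cytosol from nuclear genes and imported. Part of these proteins have bacterial counterparts, and part are found only in mitochondria. Loss of this ribosome's function impairs oxidative phosphorylation.

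Trp53 stood at 2.42 TPM in the Trp53 KO library, against 83.2 TPM in the WT library. TPM scales reads by gene length and by library size, so levels can be compared between genes as far as the gene lengths used hold. The ratio was 0.0291 with a counting interval of 0.0230 to 0.0362 (exact Clopper-Pearson, 95%). Epcam, a marker of epithelium, stood at 697 TPM in the Trp53 KO library and 713 TPM in the WT library, and Pax8, a marker of oviduct secretory cells, at 46.02 TPM in the Trp53 KO library and 44.8 TPM in the WT library. Among the other epithelial markers, Krt7 was higher with a TPM ratio of 1.33, and Cdh1, Krt8 and Krt18 were lower with ratios of 0.874, 0.783 and 0.737. The oviduct glycoprotein gene Ovgp1 stood at 0.192 TPM in the Trp53 KO library and 7.44 TPM in the WT library. Of 5 markers of multiciliated cells, 4 passed the filter of a mean of at least 1 TPM and all 4 were at least 2-fold lower (3 after rescaling the libraries by their median ratio), with summed levels of 60.2 TPM in the Trp53 KO library and 180.3 TPM in the WT library. The 3 basal cell markers Krt5, Krt14 and Trp63 summed to 1760 TPM in the Trp53 KO library and 0.287 TPM in the WT library. Markers of stroma, immune cells and endothelium were at or near 0 in both. The part of this shift in cell types in the values below was not tested, and in bulk RNA fewer cells of a type and less RNA per cell cannot be told apart.

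All 78 genes were expressed in both libraries and passed the filter. Their summed level was 7500 TPM in the Trp53 KO library and 6937 TPM in the WT library, a ratio of 1.08. Differences are given as log2(TPM + 1) in Trp53 KO minus WT. Of the 78 genes, 48 were above 0 on this scale and 30 below, with a median of 0.11 and quartiles of −0.14 and 0.26. The median over all 11228 genes that passed the filter was −0.17, so the ribosomal protein genes stood 0.28 above it, and 61 of them were above that median. Of the 78 genes, 3 were higher by 2-fold or more and 0 were lower by that much. Over all genes that passed the filter, 8.35% were higher and 15.3% lower by 2-fold or more, 23.6% in all, or 937 higher and 1715 lower. Quantile normalization split the calls over all genes into 1292 higher and 1321 lower. The medians were then 0.19 for the 78 genes and 0.03 for all genes. Rescaling by the median ratio moved the median of all genes to −0.0090 and left 64 of the 78 genes above 0, so small differences below 0 change sign with the scaling. The interquartile range of the 78 differences was 0.40, against 0.86 for the 5598 genes with mean levels in the same range, from 12.6 to 578 TPM. The median of those 5598 genes was −0.10, and 8.61% of them were higher and 11.4% lower by 2-fold or more.

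**Figure D1:**
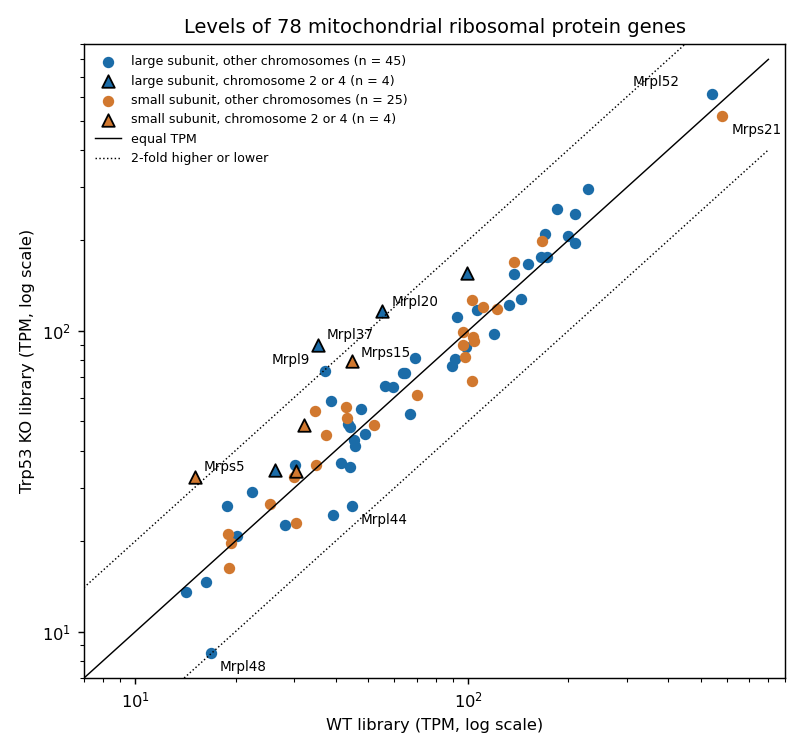
Level of each of the 78 mitochondrial ribosomal protein genes in the Trp53 KO library (vertical axis) and the WT library (horizontal axis), in TPM on log scales, 1 point per gene. Most points lie close to the line of equal TPM, and the 3 genes beyond the upper 2-fold line, Mrpl37, Mrps5 and Mrpl20, all lie on chromosome 2 or 4.

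Although each ribosome holds most of these proteins in single copy, mRNA levels within the set spanned 72.7-fold in the Trp53 KO library and 41.0-fold in the WT library. The most abundant by the mean of both libraries was Mrpl52, a mitochondria-specific protein of the large subunit, at 615 TPM in the Trp53 KO library and 541 TPM in the WT library. Mrps21, a small subunit protein with a bacterial counterpart, stood at 520.2 TPM in the Trp53 KO library and 581 TPM in the WT library, where it was the highest. Mrpl12, whose protein forms the flexible stalk that recruits translation factors and is present in several copies per ribosome, had 297 TPM in the Trp53 KO library and 230.1 TPM in the WT library. The lowest were Mrpl48 at 8.47 TPM in the Trp53 KO library and Mrpl1 at 14.2 TPM in the WT library. The order of levels was largely the same in both. The 10 highest genes of each library shared 9 members, the 10 lowest shared 7, and Spearman's correlation across the 78 genes was 0.94. The same coefficient over all 11228 genes was 0.84, and genes are not independent replicates.

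Mrpl37, a mitochondria-specific protein of the large subunit, had 89.9 TPM in the Trp53 KO library, against 35.3 TPM in the WT library. Its TPM ratio was 2.54, with a counting interval of 2.41 to 2.68 from 2381 reads in Trp53 KO and 3149 in WT. Mrps5 encodes a small subunit protein whose bacterial counterpart lies where mRNA enters and bears on the accuracy of decoding. It stood at 32.8 TPM in the Trp53 KO library and 15.1 TPM in the WT library, a ratio of 2.18 (2.07 to 2.29). Mrpl20, counterpart of a bacterial protein that binds ribosomal RNA early in assembly of the large subunit, had 116 TPM in the Trp53 KO library and 55.3 TPM in the WT library. Its interval of 1.97 to 2.23 included 2. Mrpl9 was just under the threshold with 73.4 TPM in the Trp53 KO library and 37.2 TPM in the WT library, a ratio of 1.97 (1.87 to 2.08). The reads of Mrpl9 were estimated from an annotated gene length, so this interval rests on that length. Mrpl9 passed 2-fold when the libraries were rescaled by their median ratio or quantile normalized, and Mrps5 did not with a pseudocount of 5. Mrpl9 shares exon sequence on the opposite strand with Oaz3, and the strand setting of the counting is not given in the sources used here, so its reads cannot be told apart from those of Oaz3.

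The 100 bases before the start of 6 of these genes are shown, because they stand at both ends of the range of differences: the 3 genes past 2-fold, Mrpl9, and the lowest gene by symbol of each subunit, Mrpl48 and Mrps18a. The sequences come from RefSeq (GRCm38.p6), 5′ to 3′ in the direction of the gene. They cover chr4:107066867-107066966 (minus strand) for Mrpl37, chr4:155802778-155802877 (plus strand) for Mrpl20 and chr2:127587326-127587425 (plus strand) for Mrps5. The others are chr3:94443236-94443335 (plus strand) for Mrpl9, chr7:100608302-100608401 (minus strand) for Mrpl48 and chr17:46110904-46111003 (plus strand) for Mrps18a. For Mrpl48 the table gives 4 starts, and the most upstream is shown. Capitals mark a motif.
Mrpl37: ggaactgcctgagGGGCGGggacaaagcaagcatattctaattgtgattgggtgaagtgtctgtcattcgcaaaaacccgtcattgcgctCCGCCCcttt
Mrpl20: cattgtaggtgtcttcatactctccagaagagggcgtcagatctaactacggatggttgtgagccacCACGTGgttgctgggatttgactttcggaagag
Mrps5: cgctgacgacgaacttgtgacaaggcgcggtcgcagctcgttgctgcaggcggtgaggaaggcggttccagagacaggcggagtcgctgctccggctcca
Mrpl9: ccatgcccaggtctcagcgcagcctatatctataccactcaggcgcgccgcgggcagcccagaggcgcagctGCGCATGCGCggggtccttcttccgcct
Mrpl48: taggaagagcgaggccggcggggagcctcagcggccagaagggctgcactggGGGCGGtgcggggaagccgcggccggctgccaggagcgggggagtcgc
Mrps18a: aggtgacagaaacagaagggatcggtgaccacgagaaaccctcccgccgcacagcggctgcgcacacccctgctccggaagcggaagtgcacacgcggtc
Mrpl37 and Mrpl48, the highest and the lowest gene of the large subunit, both carry the SP motif here. Mrpl20 has an E-box and Mrpl9 the NRF1 motif, while none of the 5 motifs is in the windows shown of Mrps5 and Mrps18a.

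RefSeq promoter windows, from 250 bases before to 50 bases after the start, were matched for 69 of the 78 genes. The 5 motifs were searched on both strands, and matches of different motifs did not overlap in these windows. The ETS motif CCGGAAGT, bound by factors such as Gabpa, was in 12 of 69 genes (17.4%), against 4.31% of all 27025 genes in the table and 9.70% of the other genes that passed the filter. The YY1 motif was in 5 (7.25%), against 0.995% of all genes and 2.57% of the other genes that passed. The NRF1 motif, in capitals in the Mrpl9 window, was in 3 (4.35%), against 1.07% and 2.35%. The SP motif GGGCGG was in 34 (49.3%), against 38.2% and 70.3%, and the E-box CACGTG in 5 (7.25%), against 8.09% and 12.04%. The median difference was 0.13 for genes with the ETS motif and 0.11 without it, and 0.11 both with and without the YY1 motif. It was −0.31 with and 0.11 without the NRF1 motif, 0.30 with and 0.10 without the E-box, and 0.14 with and 0.05 without the SP motif. The 3 genes with the NRF1 motif ran from −0.67 for Mrpl39 to 0.96 for Mrpl9. The 5 genes with the E-box include Mrpl37 and Mrpl20, both on chromosome 4. A match describes the letters in the window and not a bound site.

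At the lower end no gene passed 2-fold. Mrpl48, a mitochondria-specific protein of the central protuberance, had 8.47 TPM in the Trp53 KO library and 16.8 TPM in the WT library. Its ratio of 0.503 had a counting interval of 0.459 to 0.551, which included 0.5. Mrpl44, a protein related to double-stranded RNA nucleases, had 26.2 TPM in the Trp53 KO library and 44.7 TPM in the WT library. Mrpl39, related to threonyl-tRNA synthetases, stood at 24.3 TPM in the Trp53 KO library and 39.2 TPM in the WT library. Mrps18a, one of 3 related proteins that descend from a single bacterial one, was 68.0 TPM in the Trp53 KO library and 102.7 TPM in the WT library. These 4 genes of the set were lower by 1.5-fold or more and 9 were higher by that much, where all genes gave 27.8% and 15.9%, or 43.6% in all. In the gene models used for overlap, 47 of the 78 genes share no exon with another gene, among them Mrpl37, Mrps5 and Mrpl20. Mrpl44 and Mrpl48 share exon sequence on the opposite strand with Wdfy1 and Rab6a, and Mrpl48, like Mrpl23 and Mrps36, has a named pseudogene with which reads may be shared.

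Large subunit genes had a median difference of 0.13 and summed to 5032 TPM in the Trp53 KO library and 4533 TPM in the WT library, a ratio of 1.11. Small subunit genes had a median of 0.06 and summed to 2467 TPM in the Trp53 KO library and 2405 TPM in the WT library, a ratio of 1.03. The gap of 0.07 between the medians was smaller than the interquartile range within either subunit, 0.38 and 0.39. Mrps30 and Mrps18a carry small subunit symbols although their proteins sit in the large subunit, and Mrps36 is now counted as part of a ketoacid dehydrogenase. With genes placed by structure the medians were 0.11 in both subunits and the gap was −0.0023.

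**Figure D2:**
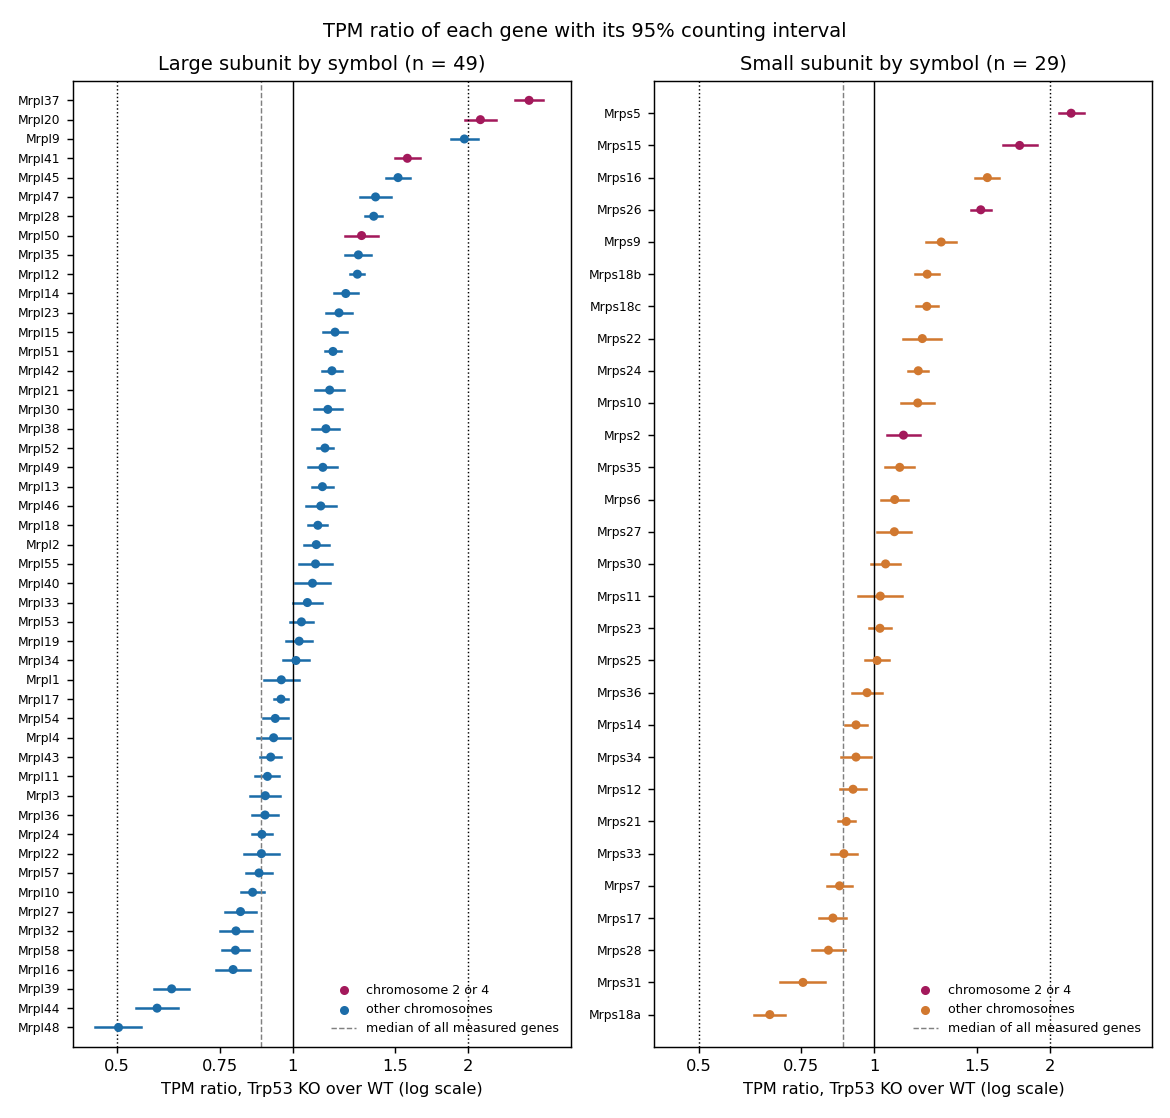
TPM ratio of Trp53 KO over WT for each gene, on a log scale, with large subunit genes at the left and small subunit genes at the right. Bars are 95% counting intervals, the dashed line is the median ratio of all measured genes (0.884), and dotted lines are 2-fold. The ratios run from 0.503 for Mrpl48 to 2.54 for Mrpl37 in the large subunit and from 0.662 for Mrps18a to 2.18 for Mrps5 in the small subunit.

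Genes of proteins with and without bacterial counterparts overlapped over most of their range. The medians were 0.11 for 30 conserved and 0.16 for 19 mitochondria-specific genes of the large subunit, and 0.14 for 16 conserved and 0.07 for 10 mitochondria-specific genes of the small subunit. The last group includes Mrps18b, which is counted as mitochondria-specific here although it is related to bacterial S18. Without chromosomes 2 and 4 the medians were 0.08 for both groups of the large subunit and 0.03 for both of the small subunit. By position in the ribosome, the 5 genes around the peptidyl transferase centre, where peptide bonds form, had a median of −0.15. Mrpl16 stood at 52.8 TPM in the Trp53 KO library and 66.7 TPM in the WT library, and Mrpl27 at 97.5 TPM in the Trp53 KO library and 119.7 TPM in the WT library. Mrpl3 was 14.7 TPM in the Trp53 KO library and 16.3 TPM in the WT library, and Mrpl4 was 45.4 TPM in the Trp53 KO library and 48.96 TPM in the WT library. The exception was Mrpl2, with 117 TPM in the Trp53 KO library and 106.7 TPM in the WT library. That median is close to the −0.17 of all genes, and it was 0.02 after rescaling by the median ratio and −0.04 after quantile normalization.

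The 5 genes of the L7/L12 stalk, which recruits translation factors, had a median of −0.10. This median was 0.08 after rescaling by the median ratio and −0.07 after quantile normalization. The 5 genes ranged from −0.22 for Mrpl10 to 0.37 for Mrpl12. Mrpl10, the base to which Mrpl12 binds, was 76.6 TPM in the Trp53 KO library and 89.7 TPM in the WT library. The 7 genes of the central protuberance, which contacts the small subunit, had a median of 0.13. Of these, 5 lay between 0.11 for Mrpl40 and 0.19 for Mrpl38, and Mrpl48 and Mrpl58 were below 0. Mrpl58, a peptidyl-tRNA hydrolase of the release factor family that rescues stalled ribosomes, had 35.2 TPM in the Trp53 KO library and 44.1 TPM in the WT library. The 6 genes at the exit of the peptide tunnel had a median of 0.10. The highest was Mrpl45, which tethers the ribosome to the inner membrane, at 58.6 TPM in the Trp53 KO library and 38.6 TPM in the WT library, a ratio of 1.52 (1.45 to 1.59). Mrpl47 was next with 26.2 TPM in the Trp53 KO library and 18.9 TPM in the WT library, and Mrpl22 was lowest with 80.6 TPM in the Trp53 KO library and 91.1 TPM in the WT library. The other 3, Mrpl17, Mrpl23 and Mrpl24, lay between −0.17 and 0.26.

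In the small subunit, the 8 genes of the head had a median of 0.02. Mrps9 was the highest of them at 56.0 TPM in the Trp53 KO library and 42.98 TPM in the WT library, and Mrps31 the lowest at 23.02 TPM in the Trp53 KO library and 30.5 TPM in the WT library. Mrps7, whose bacterial counterpart starts assembly of the head, was 61.1 TPM in the Trp53 KO library and 70.0 TPM in the WT library. Mrps28, outside both groups, was 81.7 TPM in the Trp53 KO library and 97.8 TPM in the WT library. The 15 genes of the body and platform had a median of 0.12. After Mrps5, the highest were Mrps15 at 79.3 TPM in the Trp53 KO library and 44.7 TPM in the WT library, and Mrps16 at 54.2 TPM in the Trp53 KO library and 34.6 TPM in the WT library. Mrps26, a mitochondria-specific protein, had 48.8 TPM in the Trp53 KO library and 32.02 TPM in the WT library. Mrps12, which lines the decoding centre, was close to equal with 95.4 TPM in the Trp53 KO library and 103.7 TPM in the WT library, and Mrps17 was the lowest at 16.2 TPM in the Trp53 KO library and 19.1 TPM in the WT library. Of the 3 relatives of bacterial S18, Mrps18b had 126.6 TPM in the Trp53 KO library and 102.7 TPM in the WT library, and Mrps18c had 169 TPM in the Trp53 KO library and 138 TPM in the WT library. Both were higher in the Trp53 KO library while Mrps18a was lower.

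All 3 genes past 2-fold lie on chromosome 2 or 4. Of the 78 genes 8 lie there, and all 8 were above 0, as were 70.9% of all measured genes of these chromosomes and 34.7% of those on other chromosomes. Over all measured genes, 19.3% of those on chromosomes 2 and 4 were higher by 2-fold or more, against 6.39% of those on other chromosomes. On chromosome 4 were Mrpl37, Mrpl20, Mrps15 and Mrpl50, with a median difference of 0.94, where all 672 measured genes of the chromosome had 0.63. Mrpl50 was the lowest of them, at 34.5 TPM in the Trp53 KO library and 26.3 TPM in the WT library. On chromosome 2 were Mrps5, Mrpl41, Mrps26 and Mrps2, with a median of 0.62, where all 895 measured genes had 0.20. Mrpl41 was 156 TPM in the Trp53 KO library and 99.1 TPM in the WT library, and Mrps2 was 34.2 TPM in the Trp53 KO library and 30.5 TPM in the WT library. The medians of all genes on the other 18 chromosomes lay between −0.36 and −0.14. The part of the chromosome in the members' values was not tested.

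**Figure D3:**
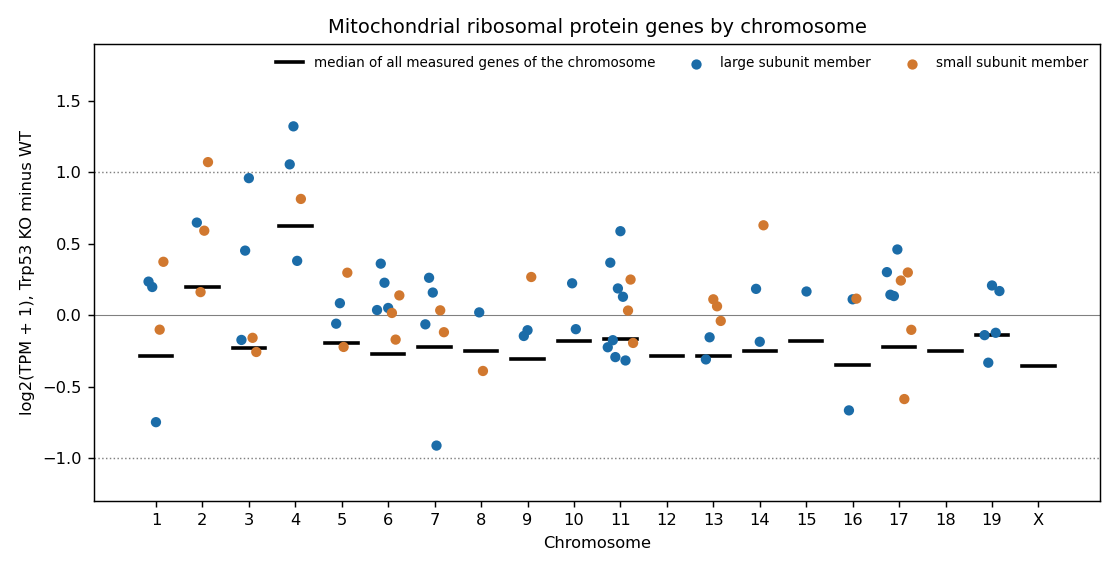
Difference in log2(TPM + 1), Trp53 KO minus WT, of each mitochondrial ribosomal protein gene (points) by chromosome, with the median of all measured genes of that chromosome (black bars) and dotted lines at 2-fold. The 4 genes on chromosome 4 and the 4 on chromosome 2 all lie above 0, and the bars of those chromosomes stand at 0.63 and 0.20.

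Without chromosomes 2 and 4, 70 genes remained. By construction 0 of them were higher by 2-fold or more, and 0 were lower by that much. Of all measured genes outside chromosomes 2 and 4, 6.39% were higher and 16.3% lower by 2-fold or more. The median difference of the 70 genes was 0.04, with a range from −0.91 for Mrpl48 to 0.96 for Mrpl9. Their summed level was 6908 TPM in the Trp53 KO library and 6599 TPM in the WT library. The median of all 9452 measured genes outside chromosomes 2 and 4 was −0.24. On each of the 15 other chromosomes that hold a member, the median of the members was above that of all measured genes, with between 1 and 11 members each. The medians were 0.08 for 45 large and 0.03 for 25 small subunit genes. Outside chromosomes 2 and 4, the genes at least 1.5-fold higher were Mrpl9, Mrps16 and Mrpl45.

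A further 5 ribosome proteins carry other symbols, and all 5 were above 0 with a median of 0.34. Aurkaip1, on chromosome 4, was the highest at 140.0 TPM in the Trp53 KO library and 73.8 TPM in the WT library. It passed 2-fold after rescaling by the median ratio but not after quantile normalization. Dap3, a GTP-binding protein of the small subunit, stood at 38.6 TPM in the Trp53 KO library and 30.3 TPM in the WT library. Gadd45gip1, of the large subunit, was 73.96 TPM in the Trp53 KO library and 58.3 TPM in the WT library. Chchd1 was 165 TPM in the Trp53 KO library and 136 TPM in the WT library, and Ptcd3, an RNA-binding protein at the mRNA entry, was nearly equal at 36.5 TPM in the Trp53 KO library and 35.2 TPM in the WT library.

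Among factors that build the ribosome more genes were below 0 than above, as among all genes, whose median was −0.17. Of 23 measured assembly factors 17 were below 0 and 6 above, with a median of −0.13, and 0 were higher and 1 lower by 2-fold or more. After rescaling by the median ratio their median was 0.03, with 12 above 0 and 11 below. The gene past 2-fold was Rbfa, which helps mature the small subunit RNA, at 56.2 TPM in the Trp53 KO library and 132 TPM in the WT library. The RNA helicase gene Dhx30 was next at 11.4 TPM in the Trp53 KO library and 17.7 TPM in the WT library. The highest were Mettl17 at 10.9 TPM in the Trp53 KO library and 8.32 TPM in the WT library, and Noa1, a GTPase, at 27.99 TPM in the Trp53 KO library and 21.7 TPM in the WT library. Translation factors had a median of 0.04 over 16 genes, with 0 past 2-fold either way. Tufm, the elongation factor that delivers aminoacyl-tRNA, was 131 TPM in the Trp53 KO library and 120.2 TPM in the WT library, and its exchange factor Tsfm was 46.04 TPM in the Trp53 KO library and 37.7 TPM in the WT library. Mtrf1, of the release factor family, was lowest at 5.09 TPM in the Trp53 KO library and 9.65 TPM in the WT library, followed by the insertase Oxa1l at 19.7 TPM in the Trp53 KO library and 30.2 TPM in the WT library.

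Among 20 genes that charge mitochondrial tRNA, 14 were below 0, with a median of −0.12 (0.04 after rescaling), against −0.17 for all genes. On the log2(TPM + 1) scale, 1 was higher and 0 lower by 2-fold or more. The higher one was Lars2, the leucyl-tRNA synthetase, at 154 TPM in the Trp53 KO library and 63.1 TPM in the WT library. The second highest was Pars2 on chromosome 4, at 2.91 TPM in the Trp53 KO library and 1.71 TPM in the WT library. The lowest was Wars2 at 1.13 TPM in the Trp53 KO library and 2.68 TPM in the WT library, whose TPM ratio of 0.423 (0.346 to 0.514) is past 2-fold without the pseudocount. Next was Vars2, at 6.61 TPM in the Trp53 KO library and 10.96 TPM in the WT library. Genes that transcribe mitochondrial DNA or handle its RNA had a median of −0.04 over 9 genes (0.09 after rescaling), none past 2-fold. Tfam, which packages that DNA, was 40.4 TPM in the Trp53 KO library and 34.5 TPM in the WT library, while Tfb2m, needed to start transcription, was 16.1 TPM in the Trp53 KO library and 28.98 TPM in the WT library. The helicase gene Twnk, which shares exon sequence with Mrpl43, was 12.8 TPM in the Trp53 KO library and 22.7 TPM in the WT library. Of 6 mitochondrial proteases none was past 2-fold, and their median was −0.08 (0.09 after rescaling), with Lonp1 at 45.3 TPM in the Trp53 KO library and 28.2 TPM in the WT library and Spg7 at 32.6 TPM in the Trp53 KO library and 42.3 TPM in the WT library.

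Of 9 regulators of mitochondrial biogenesis none was past 2-fold on the log2(TPM + 1) scale, with a median of 0.26. The coactivator gene Ppargc1b was 4.62 TPM in the Trp53 KO library and 1.97 TPM in the WT library. Its TPM ratio was 2.35 (2.02 to 2.72), past 2-fold without the pseudocount, and it also passed after rescaling. Its relative Ppargc1a was 2.39 TPM in the Trp53 KO library and 4.69 TPM in the WT library. Myc, a transcription factor that drives ribosome production, stood at 77.7 TPM in the Trp53 KO library and 49.6 TPM in the WT library. Gabpa, which binds the ETS motif, was 12.1 TPM in the Trp53 KO library and 13.8 TPM in the WT library.

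The mRNAs that this ribosome translates had lower levels in the Trp53 KO library, and most cytosolic ribosomal protein genes had higher ones. All 13 mRNAs of mitochondrial DNA were below 0, with a median of −0.77 and 6 lower by 2-fold or more (3 after rescaling by the median ratio), while 2 were above 0 after quantile normalization. They took 5.92% of TPM in the Trp53 KO library and 8.72% in the WT library. The nuclear respiratory chain had a median of −0.02 over 77 measured genes (0.15 after rescaling and −0.09 after quantile normalization). Without either, 2 were higher and 2 lower by 2-fold or more. Both higher genes, Sdhb and Ndufb6, lie on chromosome 4. Cytosolic ribosomal protein genes had a median of 0.44, and 80 of 81 were above 0, with 7 higher and 0 lower by 2-fold or more. After quantile normalization 70 of them were above 0, and the medians were 0.24 for cytosolic and 0.19 for mitochondrial ribosomal protein genes. On chromosomes other than 2 and 4 the medians were 0.40 over 72 cytosolic and 0.04 over 70 mitochondrial ribosomal protein genes. Differences between these lists were not tested.

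**Figure D4:**
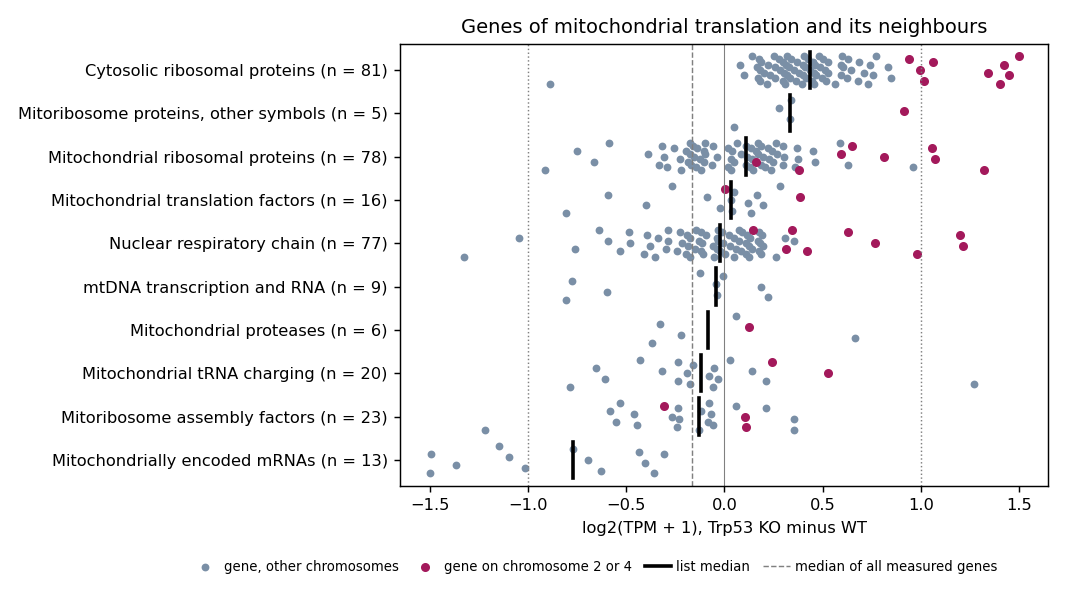
Difference in log2(TPM + 1), Trp53 KO minus WT, of each measured gene (points) in lists of mitochondrial translation and related functions, with list medians (black bars), the median of all measured genes (dashed line) and 2-fold (dotted lines). The mitochondrial ribosomal proteins, with a median of 0.11, lie between the cytosolic ribosomal proteins at 0.44 (0.24 against 0.19 after quantile normalization) and the mitochondrially encoded mRNAs at −0.77.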

How the data were processed

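Total RNA of cultured organoids was made into strand-preserving libraries and sequenced with paired ends, per the labels' protocols. The authors deposited TPM for 25668 gene symbols in 1 library of each genotype. Per the submitters' processing notes, GRCm39 was the build. Aligner, counting tool, strand setting and annotation were not given in the sources used here. Members, lists and alternatives were chosen with earlier results of these data known.

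Differences are log2(TPM + 1) in Trp53 KO minus WT for genes with a mean of at least 1 TPM, and a change was counted at 2-fold. The pseudocount of 1 makes the change of low genes smaller than their TPM ratio. With 1 library per group no p-value, SD or replicate error can be given.

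TPM holds no depth, but the ratio of a gene's values in the libraries is a fraction of whole reads times 1 constant. That constant was set from 1676 genes below 0.5 TPM in both libraries, and each ratio was then written as the simplest fraction within 2e-09 of its size. Reads were recovered in this way for 69 of the 78 members, 45 of them with a length found in GENCODE M21, and estimated from that length for 9. Members had 546 to 6921 reads in the Trp53 KO library and 2207 to 20578 in the WT library. Recovered and estimated reads over all genes with a length there came to an estimated 28525618 in the Trp53 KO library and 103273300 in the WT library. These totals leave out 736 genes without a length. Intervals on a TPM ratio are exact Clopper-Pearson intervals at 95% and cover counting error only.

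Chromosomes, gene types and lengths came from GENCODE M21, of an earlier build, and no coordinates from it are given. Exons of 47 members overlap no other gene there. Genes named are Trp53, members past 2-fold, the 5 highest and 5 lowest of each subunit, the 3 most abundant members, members of the regional groups and up to 2 highest and 2 lowest of each other list. Mrpl1, Mrpl50, Mrps2, Mrps30, Mrps36, Tufm, Dap3, the window of Mrpl9 and the examples of markers were chosen after their values were seen. The steps were run with Python 3.11.15, numpy 2.4.6, pandas 2.3.3 and scipy 1.17.1. They were tested on data simulated with GENCODE M21 lengths, which does not check reads recovered with a length not found there.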

Additional observations from a re-analysis of the deposited data

How the results depend on the processing

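No paired analysis was possible because each group has 1 library. The median of all genes was −0.17 and moved to −0.0090 when the libraries were rescaled by their median ratio and to 0.03 after quantile normalization. Rescaling moved the member medians to 0.28 for all, 0.30 for large and 0.23 for small subunit genes, and quantile normalization moved that of the small subunit to 0.19. The count of members past 2-fold, 3 as reported, was 13 at 1.5-fold and 0 at 4-fold. Without chromosomes 2 and 4 it was 0 by construction, because all 3 genes lie there. It was 4 under both rescalings, where Mrpl9 joined, and 2 with a pseudocount of 5, where Mrps5 dropped out. The count over all genes, 2652 as reported, was 1493 with a pseudocount of 5, 4898 at 1.5-fold and 928 at 4-fold, and quantile normalization split it into 1292 higher and 1321 lower, against 937 and 1715. The Trp53 difference of −4.62 was −5.05 and −3.57 with pseudocounts of 0.1 and 5, −4.49 after rescaling, −4.38 after quantile normalization and −4.78 without mitochondrially encoded genes and the 100 highest genes. The gap between the subunits, 0.07 as reported, was −0.0043 after quantile normalization and −0.0023 by ribosome structure, so its direction rests on such choices. Leaving out members whose exons overlap another gene, chosen after seeing the data, kept 47 members with a median of 0.13 and the same 3 past 2-fold. The gap between the subunits was then 0.13, larger than the 0.07 reported. Counting intervals of 2.78% to 9.10% of a ratio to either side limit single members.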
